A study of Mus musculus with 3 samples.

Results

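The T cell receptor signalling genes are the genes of the receptor complex and of the kinases, adaptors, enzymes, phosphatases and NFAT transcription factors that carry its signal. They were taken from a list of 42 gene symbols, and each was read from the probe set, a group of array probes for 1 transcript, that the platform annotation gives exactly that 1 symbol, using the brightest where there were several. By this rule 41 of the 42 had a value, and all 41 were bright enough to be compared, out of 11003 genes compared on the arrays. Lck had no such probe set and was not analysed here. Naive CD4+ T cells of wild-type C57BL/6 mice 8 weeks old were cultured with IL-21, with IL-6 + TGFb1, or with medium and vehicle, and each culture was measured on 1 array. The labels used here give no culture time, cytokine dose, number of mice or receptor stimulus. There were no replicates, so no difference below has an error or a p-value, and each compares 1 array with another.

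The T cell receptor recognises peptide held by an MHC molecule and signals through its CD3 and zeta chains, whose tails are phosphorylated by Lck and Fyn and then bound by the kinase Zap70. Zap70 phosphorylates the adaptors Lat and Lcp2, also called SLP-76, and these assemble the enzymes that lead to calcium release, calcineurin and NFAT, to protein kinase C theta and NF-kB, and to Ras. Phosphatases, ubiquitin ligases, diacylglycerol kinases and a set of inhibitory adaptors dampen the same steps. In helper T cells this pathway runs beside the cytokine signals that set the lineage.

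Intensities are given as deposited, on a linear scale, and differences as log2(intensity + 1) of 1 array minus the other. A log2 difference of 1 is a 2-fold difference, and 0.58 is close to 1.5-fold. An intensity depends on the probes as well as on the transcript, so the levels of different genes are not compared. In RNA from whole cultures, fewer cells with a transcript and less of it per cell cannot be told apart. Over genes with at least 2 bright probe sets, the differences read from the brightest pair had, in the comparison of IL-21 with medium, a median gap of 0.06, and 95% of the gaps were at most 0.41. This 95th percentile was 0.37 for IL-6 + TGFb1 against medium, and 0.34 between the treated cultures. These gaps describe disagreement between probe sets on the same arrays, not the spread between cultures, and 40 of the 41 genes had a single probe set.

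The cells carried the transcripts of CD4+ T cells on every array. Of 5 measured CD4+ T cell markers, all were above the brightness filter, and their summed intensity was 29231 with IL-21, 29058 with IL-6 + TGFb1 and 26558 with medium. These markers did not move together. With IL-21 and with IL-6 + TGFb1, Cd28 differed from medium by 0.41 and 0.51, Cd5 by 0.21 and 0.44 and Cd2 by 0.17 and 0.02. Cd3e differed by 0.03 and -0.05, and Cd4 by -0.02 and -0.17. None of the 6 macrophage markers and none of the 4 NK cell markers passed the filter of 187. The B cell markers passed in 1 of 5 (Cd79b), the dendritic cell markers in 1 of 5 (Zbtb46) and the CD8 T cell markers in 1 of 2 (Cd8b1). Cd8b1 was well above the filter, at 731 with IL-21, 616 with IL-6 + TGFb1 and 810 with medium (-0.15 and -0.39). No probe set on these arrays read 0 (the lowest value was 25.5), so a value below the filter does not show that a transcript was absent. The NK cell markers summed to 266 with IL-21, 344 with IL-6 + TGFb1 and 235 with medium. Klrd1, which was below the filter, carried that difference (98.1 with IL-21, 173 with IL-6 + TGFb1 and 66.0 with medium), and Ncr1, Klrb1c and Klra8 lay between -0.03 and 0.03 from medium. The 8 T cell activation markers all passed the filter and summed to 36841 with IL-21, 32350 with IL-6 + TGFb1 and 36298 with medium. Il2ra, the alpha chain of the high-affinity IL-2 receptor, differed from medium by 0.01 with IL-21 and -0.03 with IL-6 + TGFb1. Cd69, an early activation marker, differed by -0.40 with IL-21 and -0.58 with IL-6 + TGFb1. Il2 differed by 0.28 with IL-21 and -0.61 with IL-6 + TGFb1, Tnfrsf9 by 0.29 with IL-21 and -0.43 with IL-6 + TGFb1, and Egr2 by 0.66 with IL-21 and 0.26 with IL-6 + TGFb1. Myc differed by -0.12 with IL-21 and -0.29 with IL-6 + TGFb1. The remaining activation markers, Nr4a1 (0.22 with IL-21 and 0.06 with IL-6 + TGFb1) and Irf4 (0.03 and 0.06), were above medium in both. Of 5 naive T cell markers 3 were measured, and all 3 passed the filter. Il7r differed from medium by 0.58 with IL-21 and 0.89 with IL-6 + TGFb1, Ccr7 by -0.19 and -0.05, and Lef1 by 0.00 in both. The part of these shifts in the results below was not tested.

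Most T cell receptor signalling genes lay close to medium in both treated cultures, and a few stood far from the rest. Trat1, which encodes the transmembrane adaptor TRIM of the receptor complex, was lower in both. Themis, an adaptor needed for thymocyte selection, Malt1, the protease of the complex that activates NF-kB, and Nfatc2, an NFAT transcription factor, were higher in both. Cblb, a ubiquitin ligase that restrains T cell activation, and Sla, an inhibitory adaptor, were lower with IL-6 + TGFb1 than with medium and close to medium with IL-21. Neither reached 1.5-fold, and the difference of Sla (-0.373) was barely past the 95th percentile of the probe set gaps (0.372).

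**Figure D1:**
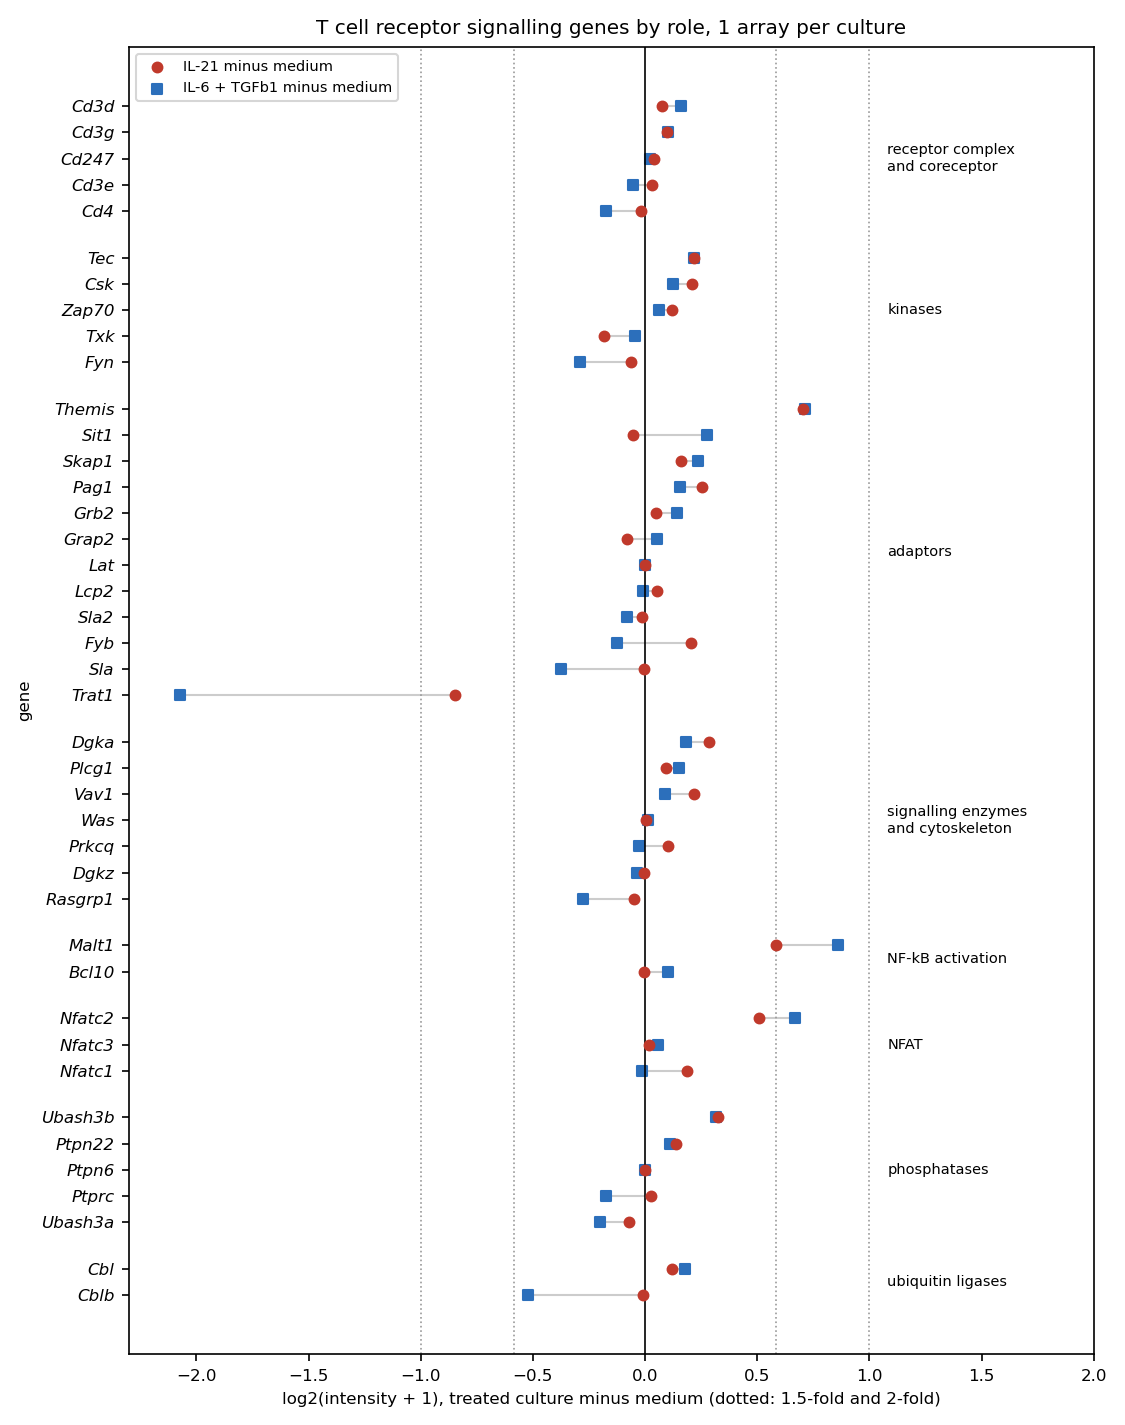
Each row is a T cell receptor signalling gene, grouped by role, and the horizontal axis is the log2 difference from medium, with red circles for IL-21 and blue squares for IL-6 + TGFb1 (1 array each). Most points lie near 0, while Trat1 lies far to the left (-0.84 for the red circle and -2.07 for the blue square), and Themis, Malt1 and Nfatc2 lie to the right in both.

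Trat1 had an intensity of 1560 with IL-21, 665 with IL-6 + TGFb1 and 2803 with medium. The levels were thus ordered, with medium highest and IL-6 + TGFb1 lowest. The difference was -0.84 with IL-21, which is 1.80-fold lower than medium, and -2.07 with IL-6 + TGFb1, which is 4.21-fold lower. Among the 11003 compared genes it ranked 17 from the lowest with IL-21 and 7 from the lowest with IL-6 + TGFb1. Both differences use the same medium array. Between the treated cultures, without that array, Trat1 was 2.35-fold higher with IL-21 (1.23), rank 19 from the highest. No other T cell receptor signalling gene reached 2-fold in any of the 3 comparisons.

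The promoter of Trat1 is shown because this gene had the largest differences of the list, and those of Themis and Nfatc2 because both genes were higher in each treated culture. The sequences are from RefSeq (GRCm38.p6) and hold the 250 bases before the gene's start, 5′ to 3′ on the gene's strand. Of the 42 listed genes 36 had an entry. Those without one were Cd4, Malt1, Nfatc1, Pag1, Skap1 and Sla. For Themis and Nfatc2, each with 2 starts, the one farther upstream is shown. Capitals mark matches, on either strand, to 7 motifs: STAT (TTCNNNGAA), GATA factors (AGATAA), NFAT (TGGAAA), AP-1 (TGANTCA), ETS (AGGAAG), SMAD (GTCTAGAC) and the TATA box (TATAAA). The Trat1 window lies at chr16:48772063-48772312 on the minus strand, that of Themis at chr10:28668110-28668359 on the plus strand and that of Nfatc2 at chr2:168601658-168601907 on the minus strand.
Trat1: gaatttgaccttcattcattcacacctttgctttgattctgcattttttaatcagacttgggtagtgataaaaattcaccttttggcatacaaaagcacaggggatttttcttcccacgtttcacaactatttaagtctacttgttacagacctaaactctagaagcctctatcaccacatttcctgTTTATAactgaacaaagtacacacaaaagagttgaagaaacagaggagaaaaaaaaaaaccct
Themis: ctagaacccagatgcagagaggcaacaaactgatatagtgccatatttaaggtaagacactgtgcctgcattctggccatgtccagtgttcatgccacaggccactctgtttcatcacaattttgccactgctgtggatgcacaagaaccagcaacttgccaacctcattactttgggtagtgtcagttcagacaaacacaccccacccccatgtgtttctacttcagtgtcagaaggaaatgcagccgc
Nfatc2: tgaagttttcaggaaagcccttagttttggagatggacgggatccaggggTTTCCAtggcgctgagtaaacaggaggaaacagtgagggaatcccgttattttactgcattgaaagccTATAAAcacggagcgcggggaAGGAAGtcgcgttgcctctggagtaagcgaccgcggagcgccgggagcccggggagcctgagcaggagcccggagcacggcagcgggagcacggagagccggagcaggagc

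In these windows Trat1 had a match to the TATA letters in reverse complement, 63 to 58 bases before the start. Nfatc2 had a match to the NFAT letters in reverse complement (200 to 195 bases before), to the TATA letters (132 to 127) and to the ETS letters (111 to 106). Themis had no match, which says no more than that these letters are not in this window. The TATA letters are in 12.4% of all 32851 promoter windows of this length, the NFAT letters in 18.6% and the ETS letters in 29.5%. A match is a description of the sequence and not a binding site.

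With IL-21, 1 of the 41 genes was at least 1.5-fold higher than medium, against 2.04% of all compared genes, and 1 was at least 1.5-fold lower, against 0.5%. None was 2-fold higher or 2-fold lower, where the shares of all compared genes were 0.482% and 0.109%. The median difference of the 41 genes was 0.05, beside 0.04 for all compared genes, and 34 of them (82.9%) lay within 0.25 log2 units of medium, beside 80.6%. With IL-6 + TGFb1, 3 genes were at least 1.5-fold higher, against 2.61% of all compared genes, and 1 was at least 1.5-fold lower, against 1.0%. None was 2-fold higher (0.673% of all compared genes) and 1 was 2-fold lower (0.364%). The median was 0.05, beside 0.02, and 31 genes (75.6%) lay within 0.25 log2 units of medium, beside 80.3%. By medians the list as a whole stood near the background in each comparison. As shares of the list, 2.44% were at least 1.5-fold higher and 2.44% lower with IL-21. With IL-6 + TGFb1 these shares were 7.32% and 2.44%. Each share was above that of all compared genes but rests on 1 to 3 genes, so the list is described here by its separate genes.

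**Figure D2:**
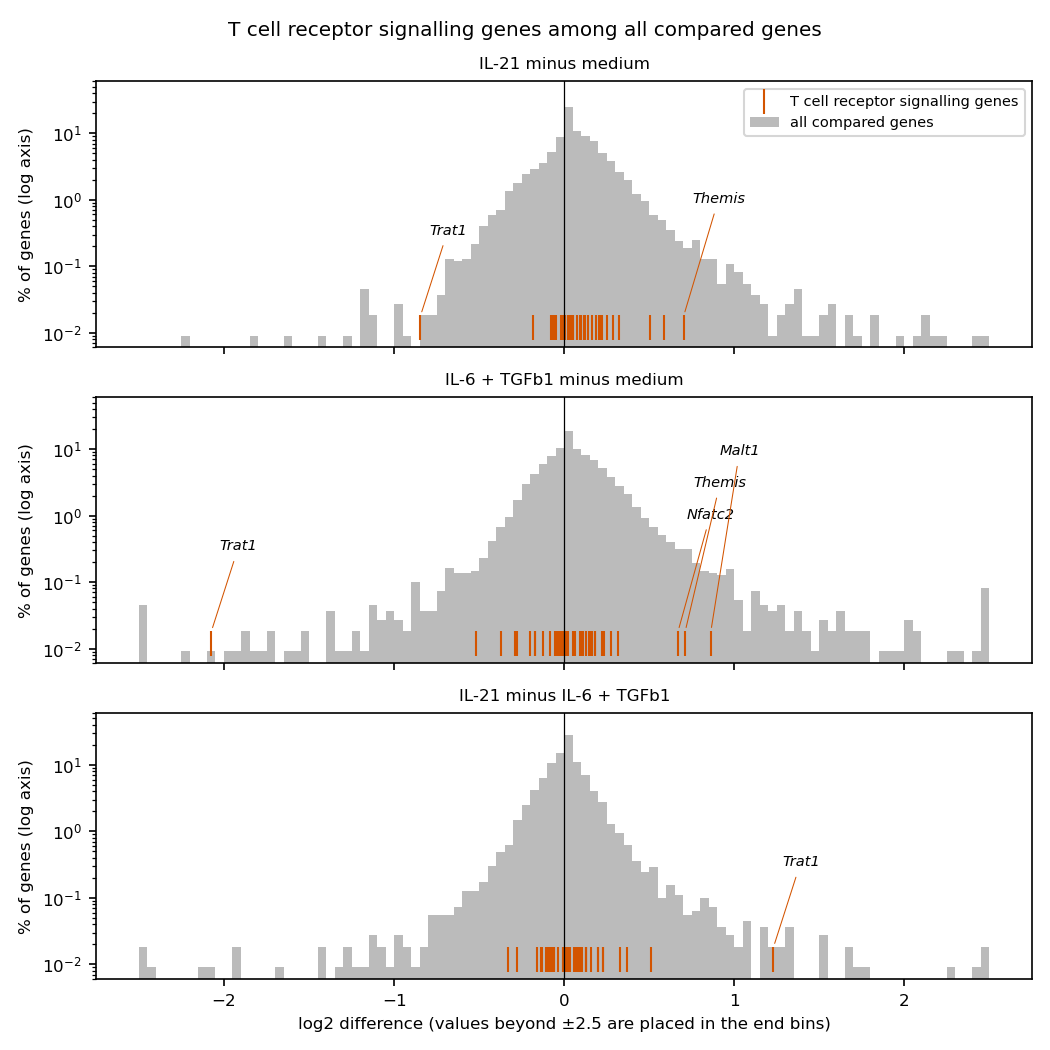
Grey bars give the share of all 11003 compared genes, on a log axis, by log2 difference in each of the 3 comparisons, and orange ticks mark the T cell receptor signalling genes, with names for those past 1.5-fold. The ticks cluster near 0, with the tick of Trat1 farthest left in the upper panels (-0.84 and -2.07) and farthest right in the lowest (1.23).

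The CD3 chains, the zeta chain and Cd4 were at similar levels on the 3 arrays. The receptor's own alpha and beta chains were not analysed here. Cd3e, a CD3 chain, had an intensity of 6434 with IL-21, 6069 with IL-6 + TGFb1 and 6294 with medium. Cd3g, another CD3 chain, had 5366 with IL-21, 5379 with IL-6 + TGFb1 and 5009 with medium. Cd3d, which pairs with Cd3e in the complex, had 1803 with IL-21, 1911 with IL-6 + TGFb1 and 1710 with medium. The differences from medium of these 3 chains lay between -0.05 and 0.16. Cd247, the zeta chain, had 1760 with IL-21, 1743 with IL-6 + TGFb1 and 1714 with medium. Cd4, the coreceptor that binds MHC class II and brings Lck to the receptor, had 6765 with IL-21, 6077 with IL-6 + TGFb1 and 6858 with medium, a difference of -0.17 for the IL-6 + TGFb1 culture. All 5 genes lay within 0.25 log2 units in each comparison.

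Among the 5 measured kinases none reached 1.5-fold. Zap70, the kinase recruited to the phosphorylated receptor, had 2459 with IL-21, 2365 with IL-6 + TGFb1 and 2264 with medium. Fyn, a Src family kinase that acts beside Lck, had 3886 with IL-21, 3323 with IL-6 + TGFb1 and 4062 with medium, a difference of -0.29 with IL-6 + TGFb1 and -0.06 with IL-21. Fyn was thus lowest with IL-6 + TGFb1, and the difference was smaller than the 95th percentile of the probe set gaps. Csk, which phosphorylates the inhibitory tyrosine of Lck and so dampens the receptor, had 3735 with IL-21, 3524 with IL-6 + TGFb1 and 3229 with medium (0.21 and 0.13). The TEC family kinases Tec and Txk went different ways with IL-21, both within the 95th percentile of the probe set gaps. Tec had 321 in each treated culture, an exactly equal value, against 275 with medium (0.22). Txk had 602 with IL-21, 662 with IL-6 + TGFb1 and 684 with medium (-0.18 and -0.05).

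The 12 adaptors held both the highest and the lowest difference of the list with IL-21. Themis had 2157 with IL-21, 2170 with IL-6 + TGFb1 and 1325 with medium. The treated cultures were alike and above medium, by 0.70 with IL-21 (1.63-fold, rank 145 from the highest of all compared genes) and 0.71 with IL-6 + TGFb1 (1.64-fold, rank 186). The core scaffold of the pathway was at similar levels on the 3 arrays. Lat, the membrane scaffold phosphorylated by Zap70, had 6244 with IL-21 and exactly 6243 in both other cultures. Lcp2, its partner in the cytosol, had 5287 with IL-21, 5058 with IL-6 + TGFb1 and 5092 with medium. Grap2, also called Gads, which links Lat to Lcp2, had 3349 with IL-21, 3674 with IL-6 + TGFb1 and 3539 with medium. Grb2, the adaptor that brings the Ras activator Sos to Lat, had 583 with IL-21, 623 with IL-6 + TGFb1 and 563 with medium. These 4 adaptors lay between -0.08 and 0.14 from medium.

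Fyb and Skap1 encode the adaptors ADAP and SKAP55, which act together on integrins. Fyb had 1847 with IL-21, 1470 with IL-6 + TGFb1 and 1601 with medium, so it was above medium with IL-21 (0.21) and below it with IL-6 + TGFb1 (-0.12). Skap1 had 1647 with IL-21, 1733 with IL-6 + TGFb1 and 1472 with medium (0.16 and 0.24). The partners thus did not share an order of levels over the 3 cultures. All these differences were within the 95th percentile of the probe set gaps.

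The inhibitory adaptors went in different directions with IL-6 + TGFb1. Sla, or SLAP, which with Cbl lowers receptor levels at the surface, had 4505 with IL-21, 3489 with IL-6 + TGFb1 and 4519.5 with medium. The IL-6 + TGFb1 culture was thus the low one, at -0.37, which is 1.30-fold lower than medium. Its relative Sla2 had 932 with IL-21, 888 with IL-6 + TGFb1 and 939 with medium, a difference of -0.08 with IL-6 + TGFb1. Sit1, a transmembrane adaptor that binds the phosphatase SHP-2, was instead highest with IL-6 + TGFb1, at 1109 with IL-21, 1396 with IL-6 + TGFb1 and 1152 with medium (0.28 for IL-6 + TGFb1). Pag1, which anchors Csk at the membrane, had 543 with IL-21, 508 with IL-6 + TGFb1 and 455 with medium (0.25 and 0.16).

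**Figure D3:**
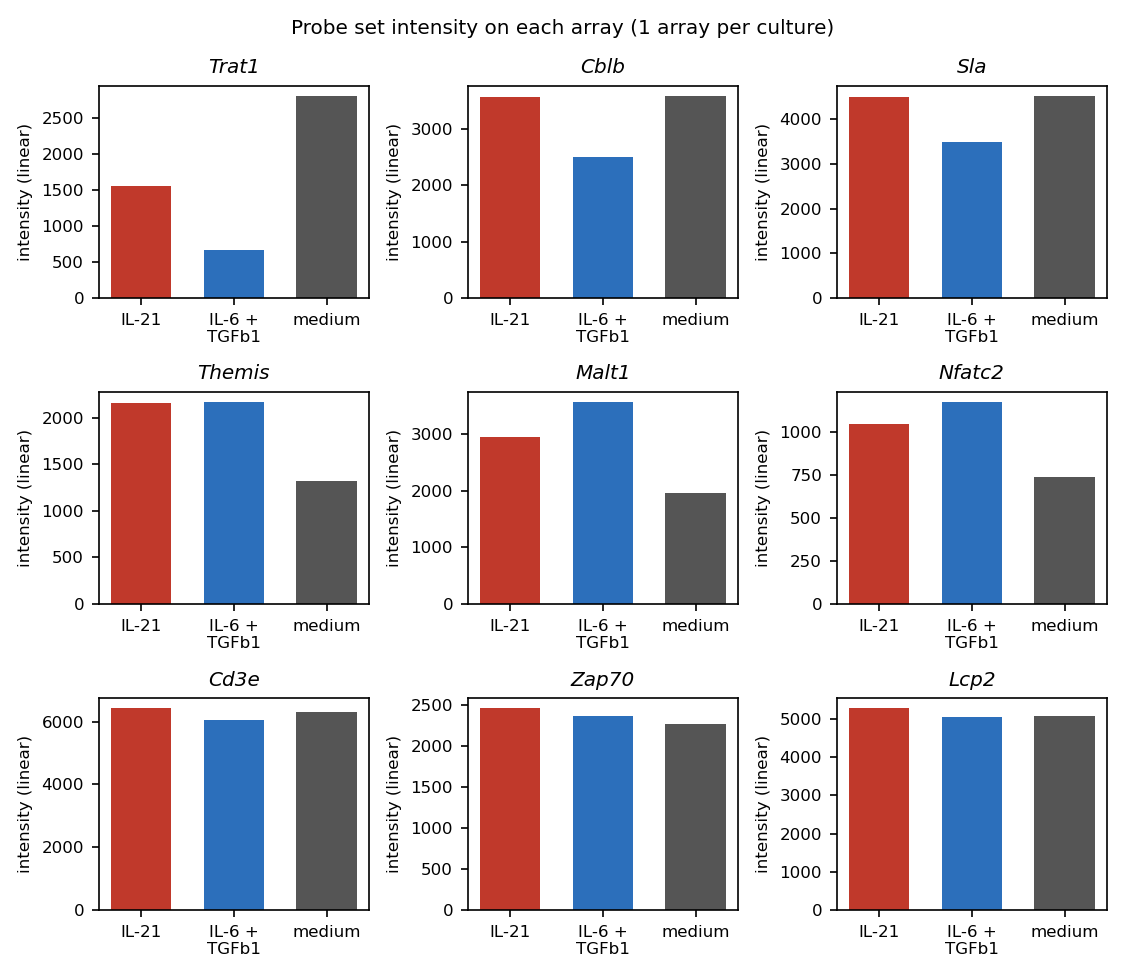
Bars give the linear probe set intensity of 9 T cell receptor signalling genes on the array of each culture (1 array each, axes from 0). Trat1 is lowest with IL-6 + TGFb1 (665 against 2803 with medium), Cblb and Sla are low in that culture alone, Themis, Malt1 and Nfatc2 are lowest with medium, and Cd3e, Zap70 and Lcp2 are at similar levels in all 3.

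Downstream of the adaptors, the 7 signalling enzymes and cytoskeletal regulators lay between -0.28 and 0.29 from medium. Plcg1, the phospholipase that makes the calcium-releasing messenger and diacylglycerol, had 1770 with IL-21, 1844 with IL-6 + TGFb1 and 1659 with medium. Vav1, an exchange factor that acts on the actin cytoskeleton, had 3146 with IL-21, 2881 with IL-6 + TGFb1 and 2705 with medium (0.22 and 0.09). Prkcq, protein kinase C theta, had 4731 with IL-21, 4336 with IL-6 + TGFb1 and 4411 with medium. Was, the actin regulator mutated in human Wiskott-Aldrich syndrome, had 1638 with IL-21, 1645 with IL-6 + TGFb1 and 1632 with medium, so its 3 values were almost equal.

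The genes that act on diacylglycerol differed in direction. Rasgrp1, the exchange factor through which diacylglycerol activates Ras, had 4665 with IL-21, 3974 with IL-6 + TGFb1 and 4819 with medium, lowest with IL-6 + TGFb1 (-0.28). Dgka, the diacylglycerol kinase that removes this messenger, had 8468 with IL-21, 7883 with IL-6 + TGFb1 and 6948 with medium, highest with IL-21 (0.29). Dgkz, a second such kinase, had 1400 with IL-21, 1370 with IL-6 + TGFb1 and 1406 with medium. Its dimmer probe set read 238 with IL-21, 267 with IL-6 + TGFb1 and 333 with medium, a difference of -0.48 with IL-21, so the probe sets of Dgkz disagreed.

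Of the genes that lead from protein kinase C theta to NF-kB, Malt1 had larger differences from medium than its partner Bcl10. Malt1 had 2943 with IL-21, 3568 with IL-6 + TGFb1 and 1963 with medium. It was highest with IL-6 + TGFb1, at 0.86 (1.82-fold, rank 116 from the highest), and was just short of 1.5-fold with IL-21, at 0.58 (rank 227). Bcl10, which binds and activates Malt1, had 2067 with IL-21, 2223 with IL-6 + TGFb1 and 2073 with medium, a difference of 0.10 with IL-6 + TGFb1.

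Among the NFAT genes Nfatc2 alone was past 1.5-fold. Nfatc2 had 1048 with IL-21, 1173 with IL-6 + TGFb1 and 738 with medium, which is 0.51 above medium with IL-21 (1.42-fold) and 0.67 with IL-6 + TGFb1 (1.59-fold, rank 209 from the highest). Nfatc1 had 1358 with IL-21, 1182 with IL-6 + TGFb1 and 1193 with medium, so it was highest with IL-21 (0.19). Nfatc3 had 3189 with IL-21, 3271 with IL-6 + TGFb1 and 3146 with medium (0.02 and 0.06). The differences of Nfatc1 and Nfatc3 from medium were within the 95th percentile of the probe set gaps.

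The phosphatases lay between -0.20 and 0.32 from medium. Ptprc, or CD45, which activates Lck by removing its inhibitory phosphate, had 5547 with IL-21, 4836 with IL-6 + TGFb1 and 5451 with medium (-0.17 with IL-6 + TGFb1). Ptpn6, or SHP-1, had an exactly equal value of 2473 on all 3 arrays, and Ptpn22, which acts against Lck and Zap70, had 1938 with IL-21, 1901 with IL-6 + TGFb1 and 1762 with medium. The related phosphatases Ubash3a and Ubash3b, which dampen Zap70, differed in direction. Ubash3b had 708 with IL-21, 705 with IL-6 + TGFb1 and 565 with medium, 0.32 above medium in each treated culture. Ubash3a had 2317 with IL-21, 2124 with IL-6 + TGFb1 and 2437 with medium (-0.07 and -0.20).

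The ubiquitin ligases Cbl and Cblb also differed. Cblb had 3565 with IL-21, 2501 with IL-6 + TGFb1 and 3586 with medium. It was low with IL-6 + TGFb1 alone, at -0.52 (1.43-fold lower than medium, rank 130 from the lowest of all compared genes), while with IL-21 it differed from medium by -0.01. Cbl had 2158 with IL-21, 2248 with IL-6 + TGFb1 and 1986 with medium (0.12 and 0.18).

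Read by role, the 13 listed genes that dampen the receptor's signal had a median difference of 0.00 with IL-21 and 0.11 with IL-6 + TGFb1, and the 28 other measured genes had medians of 0.05 and 0.04. All 4 genes past 1.5-fold in any comparison were among those 28. With IL-21, 4 of the 41 genes lay beyond the 95th percentile of the probe set gaps (9.76%, beside 6.76% of all compared genes), namely Themis, Malt1 and Nfatc2 above it and Trat1 below. With IL-6 + TGFb1 there were 6 (14.6%, beside 9.25%), with Cblb and Sla added on the lower side. The difference of Sla (-0.373) was barely past that percentile (0.372).

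The arrays of both treated cultures were also set against each other, which leaves out the medium array. The cultures differ in the STAT3-activating cytokine and in the presence of TGFb1, and what each of these contributed cannot be told apart. Of the 41 genes, 1 was at least 1.5-fold higher with IL-21, against 0.927% of all compared genes, and this gene, Trat1, was also the 1 past 2-fold, against 0.273%. None was 1.5-fold lower (0.527% of all compared genes) or 2-fold lower (0.191%). The median was 0.03, beside 0.00 for all compared genes. After Trat1 (1.23) the highest differences were those of Cblb (0.51, 1.43-fold), Sla (0.37), Fyb (0.33), Rasgrp1 (0.23) and Fyn (0.23). The lowest were those of Sit1 (-0.33), Malt1 (-0.28) and Nfatc2 (-0.16), all lower with IL-21. Of the dampening genes 10 of 13 were above 0 in this comparison, and 14 of the 28 others were, beside 44.7% of all compared genes. A further 13.0% of all compared genes had exactly equal values. These signs rest mostly on small differences: the dampening genes had a median of 0.07, with 10 of 13 within 0.25 log2 units. The others had a median of 0.00, with 25 of 28 within 0.25. Trat1, Cblb and Sla were the 3 beyond the 95th percentile of the probe set gaps, 7.32% of the list beside 4.42% of all compared genes.

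**Figure D4:**
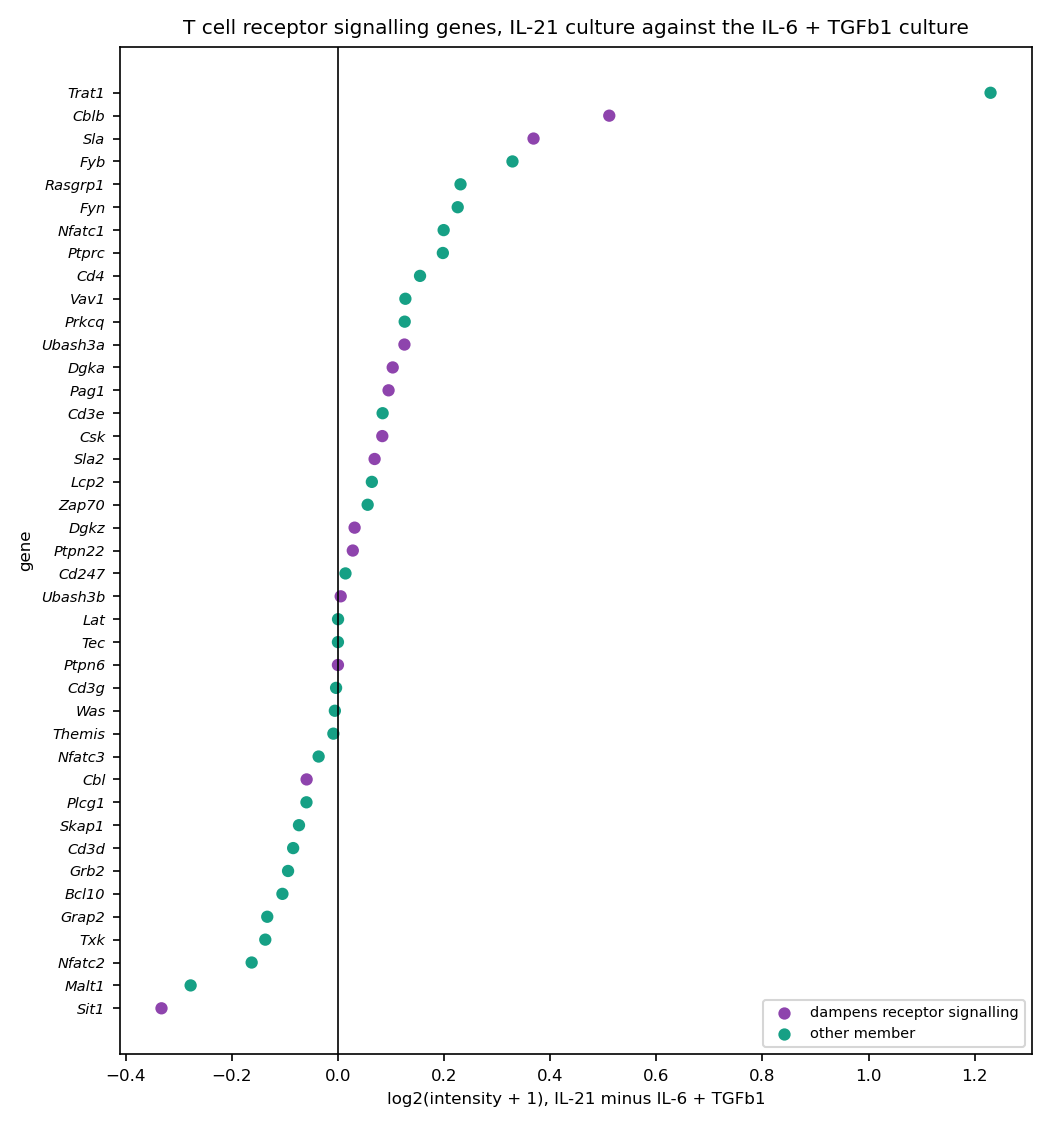
Each point is a T cell receptor signalling gene, ordered by its log2 difference, IL-21 minus IL-6 + TGFb1, with purple for genes that dampen the receptor's signal and green for the others (1 array each). Trat1 stands alone at 1.23, followed by the dampening genes Cblb (0.51) and Sla (0.37), and Sit1 is at the low end (-0.33).

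A further 83 genes of the pathway outside the list, from calcium entry to the cytoskeleton, were read the same way, and 69 were compared. With IL-21, 2 of the 69 were at least 1.5-fold higher than medium and none was 1.5-fold lower, beside 2.04% and 0.5% of all compared genes, and the median was 0.09, beside 0.04. With IL-6 + TGFb1, 1 was at least 1.5-fold higher and 2 were lower, beside 2.61% and 1.0%, and the median was 0.05, beside 0.02. Skap2, the relative of Skap1, was higher in both treated cultures, at 423 with IL-21, 390 with IL-6 + TGFb1 and 219 with medium (0.94 and 0.83). Lime1, a transmembrane adaptor that binds Lck, had 1046 with IL-21, 913 with IL-6 + TGFb1 and 693 with medium (0.59 and 0.40). Vav3, a relative of Vav1, was low with IL-6 + TGFb1, at 454 with IL-21, 248 with IL-6 + TGFb1 and 523 with medium (-0.20 and -1.07), and was the 1 gene of the 69 at least 2-fold lower, beside 0.364% of all compared genes. Ppp3ca, a catalytic subunit of calcineurin, the phosphatase that activates NFAT, had 454 with IL-21, 328 with IL-6 + TGFb1 and 507 with medium (-0.16 and -0.63). Between the treated cultures Vav3 alone of the 69 was past 1.5-fold, higher with IL-21 (0.87), beside 0.927% of all compared genes. The lowest values of Skap2 (219 with medium) and Vav3 (248 with IL-6 + TGFb1) were close to the brightness filter of 187.

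**Figure D5:**
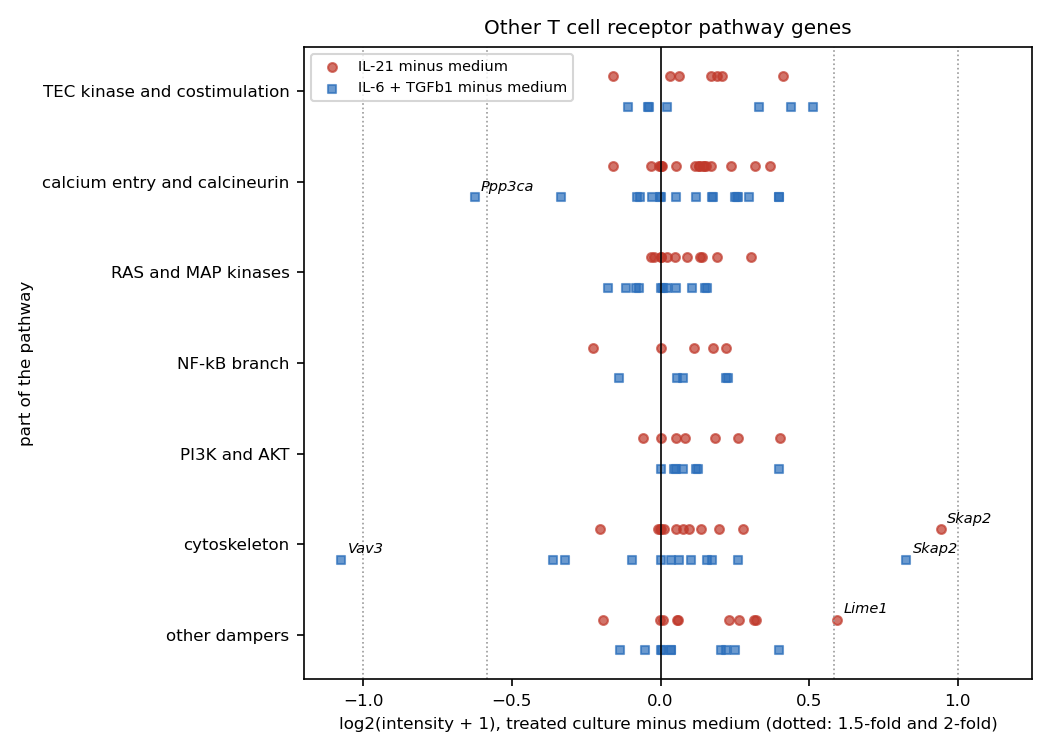
Points are the 69 compared pathway genes outside the list, by part of the pathway, on the log2 difference from medium, with red circles for IL-21 and blue squares for IL-6 + TGFb1 (1 array each). Genes past 1.5-fold are named: Skap2 in both cultures, Lime1 with IL-21, and Vav3 (-1.07) and Ppp3ca (-0.63) with IL-6 + TGFb1.

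Of the promoter motifs searched, the ETS letters AGGAAG were the most frequent among the listed genes. They were present in 32 of the 52 promoter windows of the 36 genes with an entry (61.5%), beside 29.5% of all windows, and in at least 1 window of 25 of those genes. The share of all genes with such a window was not computed, so the count of 25 has no background. A gene with several windows has more chances of a match. Several windows of a gene can overlap, so the windows are not independent, and this share bears on the list and not on any difference between cultures. The STAT letters were in 4 windows (7.69%, beside 7.02% of all), the GATA letters in 6 (11.5%, beside 9.99%) and the NFAT letters in 10 (19.2%, beside 18.6%). The AP-1 letters were in none of the 52, beside 6.75% of all windows, and the SMAD letters in none, beside 0.167%. The window with the most ETS matches among the measured genes, 3, was that of Ptprc, at chr1:138175306-138175555 on the minus strand (GRCm38.p6, RefSeq), shown with the same motifs in capitals.
Ptprc: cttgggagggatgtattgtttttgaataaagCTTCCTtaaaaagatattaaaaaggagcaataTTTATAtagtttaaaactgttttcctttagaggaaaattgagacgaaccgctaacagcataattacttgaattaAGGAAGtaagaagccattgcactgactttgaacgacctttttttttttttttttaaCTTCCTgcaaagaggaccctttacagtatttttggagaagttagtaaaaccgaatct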

How the data were processed

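RNA from 3 cultures was labelled with an Affymetrix whole-transcript kit and hybridized by a service company, per the labels' protocols. The authors deposited intensities on a linear scale for 28815 probe sets, and the unit was read from the values. The sources used here do not give the method of summarizing or normalizing them. The build was mm8 per the submitters' processing notes. Array medians were 182 with IL-21, 188 with IL-6 + TGFb1 and 191 with medium. Exactly equal values on a pair of arrays were frequent (16.4% to 21.6% of probe sets) and give a difference of exactly 0. How these equal values arose was not tested.

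Of the probe sets 21780 had 1 gene symbol in the platform annotation, 1605 had several and 5430 had none listed. The highest-mean probe set stood for each of 19935 genes. Genes whose highest value reached 187, the median of all values, were compared, and log2(intensity + 1) was used. With 1 array per group no test was run, and the number of arrays limits the precision. Folds of 1.5 and 2 were used to count genes. All listed genes are named, and other pathway genes where past 1.5-fold. The list, the other gene lists and the thresholds were chosen with earlier results of these data known. Calculations used Python 3.11.15, numpy 2.4.6 and pandas 2.3.3 and were tested on simulated data. The alternatives were 2 scalings, another pseudocount, a floor, 3 other brightness filters and 2 other choices of probe set.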

Additional observations from a re-analysis of the deposited data

How the results depend on the processing

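Over 9 alternative settings the counts of T cell receptor signalling genes past 1.5-fold and 2-fold and their medians were recomputed, which gave 135 values. Of these 133 stayed within 1.5 times the count reported, or within the median gap between probe sets for a median. In each comparison that gap was larger than the median reported, so a median could reach 0 and still be counted here. Between the treated cultures the median was 0.028 as reported and 0.003 with quantile normalization, which was within the gap of 0.05. Several settings could move the 135 values little, since 40 of the 41 genes had a single probe set and all were bright enough to be compared. With each array centred on its median the number at least 1.5-fold higher with IL-21 was 2, since Malt1 came to 0.65, and the median with IL-21 was 0.12, beside 0.10 for all compared genes. Trat1 lay between -2.10 and -2.05 with IL-6 + TGFb1, between -0.88 and -0.78 with IL-21 and between 1.21 and 1.27 between the treated cultures. Themis with IL-21 lay between 0.62 and 0.77, and Nfatc2 with IL-6 + TGFb1 between 0.59 and 0.69. None of the differences past 1.5-fold of Trat1, Themis, Malt1, Nfatc2, Skap2, Lime1, Vav3 and Ppp3ca changed sign in these settings. Each of these genes had a single probe set that passed every brightness filter, so these filters, the floor and the probe set choices left its differences unchanged. Their ranges rest on the other pseudocount and the 2 scalings. Cblb and Sla, which were short of 1.5-fold, were not followed through the settings. Lime1 with IL-21 was at 0.49 with quantile normalization and 0.58 with a pseudocount of 16, both short of 1.5-fold, and Skap2 with IL-21 was at 1.01 with median centring, which is past 2-fold. No setting can stand in for replicate cultures. No paired analysis was possible because each group has 1 array.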

Other observations

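A pair of probe sets carried the symbols Fyb and Phb together and was not used for Fyb. The first read 3676 with IL-21, 3607 with IL-6 + TGFb1 and 3859 with medium, and the second read 4009 with IL-21, 4100 with IL-6 + TGFb1 and 4265 with medium. Their differences from medium lay between -0.10 and -0.06. The probe set of Fyb alone gave 0.21 with IL-21, in the other direction, and -0.12 with IL-6 + TGFb1, in the same direction. Cd28, the main costimulatory receptor of T cells, had 5248 with IL-21, 5630 with IL-6 + TGFb1 and 3945 with medium, which is 0.41 and 0.51 above medium. Cd5, a surface receptor that dampens receptor signalling, had 5684 with IL-21, 6673 with IL-6 + TGFb1 and 4926 with medium (0.21 and 0.44). Neither reached 1.5-fold, and both were chosen after their values were seen.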
